A study of Sus scrofa with 33 samples.

Results

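The response of the pituitary to heat was examined within F1 crossbred pigs, the offspring of the Large White and Creole breeds. The comparison set 5 F1 arrays from heat stress (HS) against 6 F1 arrays from thermoneutral conditions (TN). These were all the arrays whose titles named the F1 cross, 11 of the 33 arrays of the series. The other 22 arrays came from the parental breeds. Large White and Creole each had 11 (5 TN and 6 HS). Their own values are given mainly where the F1 response is set against the parental one. The fit took in all 33 arrays, so each SE and p within F1 also rests on the spread of the parental arrays.

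All pigs were growing castrated males kept in a climatic room at a tropical research station, and each array held RNA of 1 animal. TN pigs were kept at 24 °C. HS pigs are labelled 30 °C, whereas the text of the series gives 32 °C for an exposure of 5 days, so the groups are called TN and HS here. According to the methods of the study, slaughter of the TN pigs came first, ahead of the rise in temperature, and that of the HS pigs at the end of the exposure, and the pigs of a breed came in blocks of littermates. Day of slaughter, age and temperature therefore cannot be told apart, and the labels do not say which F1 pigs were littermates. The p-values below measure the spread between arrays without that kinship.

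The anterior pituitary makes the hormones that drive growth, lactation, reproduction, the adrenal cortex and the thyroid. Its output is set by releasing factors from the hypothalamus and by feedback from the target glands, of which cortisol and thyroid hormone are known to respond to a hot environment. Cells under acute heat commonly make heat shock proteins, the chaperones that keep other proteins folded. Feed intake and heat production fall in pigs kept warm, so the hormone axes of metabolism have been a natural place to look for acclimation.

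The 7 pituitary hormone genes gave very bright signals on the F1 arrays, matching the pituitary label. Their mean log2 level over the list ran from 17.89 to 18.04 on the TN arrays and from 17.69 to 17.89 on the HS arrays, so that each HS array lay below each TN array, by as little as the step from 17.891 to 17.892. The methods name the anterior lobe, but oxytocin (OXT), a product of the posterior lobe, was also bright, at 15.34 to 15.83 over the 11 arrays. Of 6 posterior lobe and glial markers, 5 were on the lower side in HS with a median of -0.10, and 0 reached an unadjusted p under 0.05. On slide 2 the median was 0.20 with 5 of 6 higher, and without HS 4 it was -0.03. GFAP of glia was dim, at 5.76 to 6.80 in TN and 5.604 to 6.24 in HS. The median intensity of an F1 array lay between 131 and 157 against a median local background of 20 to 45, between 73.5% and 80.5% of spots were well above background, and no spot was saturated. On the F1 arrays alone, the first principal component held 27.3% of the variance, of which temperature accounted for 2.31% and slide for 10.7%. Temperature accounted for 70.9% of the third component, which held 12.5% of the variance. F1 arrays of both temperatures were found together on 3 of the 5 slides, and 33 of the 100 named probes and 13 of the 24 list medians had the opposite direction on at least 1 of these slides. Such values are given below for the results they touch most.

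No probe passed the adjusted threshold for HS against TN within F1. With limma and Benjamini-Hochberg adjustment over 45667 probes, 0 were called (0%) and the smallest adjusted p was 0.129. With limma on the F1 arrays alone 0 were called and the smallest adjusted p was 0.233. An unadjusted p under 0.05 was reached by 2593 probes (5.68%), of which 1467 (3.21%) were higher and 1126 (2.47%) lower in HS. The HS and TN arrays did not overlap for 163 probes that were higher (0.357%) and 105 that were lower (0.23%). Leaving out a single array gave 1 or 2 calls in 4 cases. Without HS 3 the pair of probes for the transcript ENSSSCT00000002800 passed, and without TN 3 it was 2 probes with no symbol. Without TN 4 it was TCHP and without HS 5 it was MCOLN3. The text below therefore gives levels and directions of the genes nearest to the threshold, and none of them is a called difference.

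**Figure D1:**
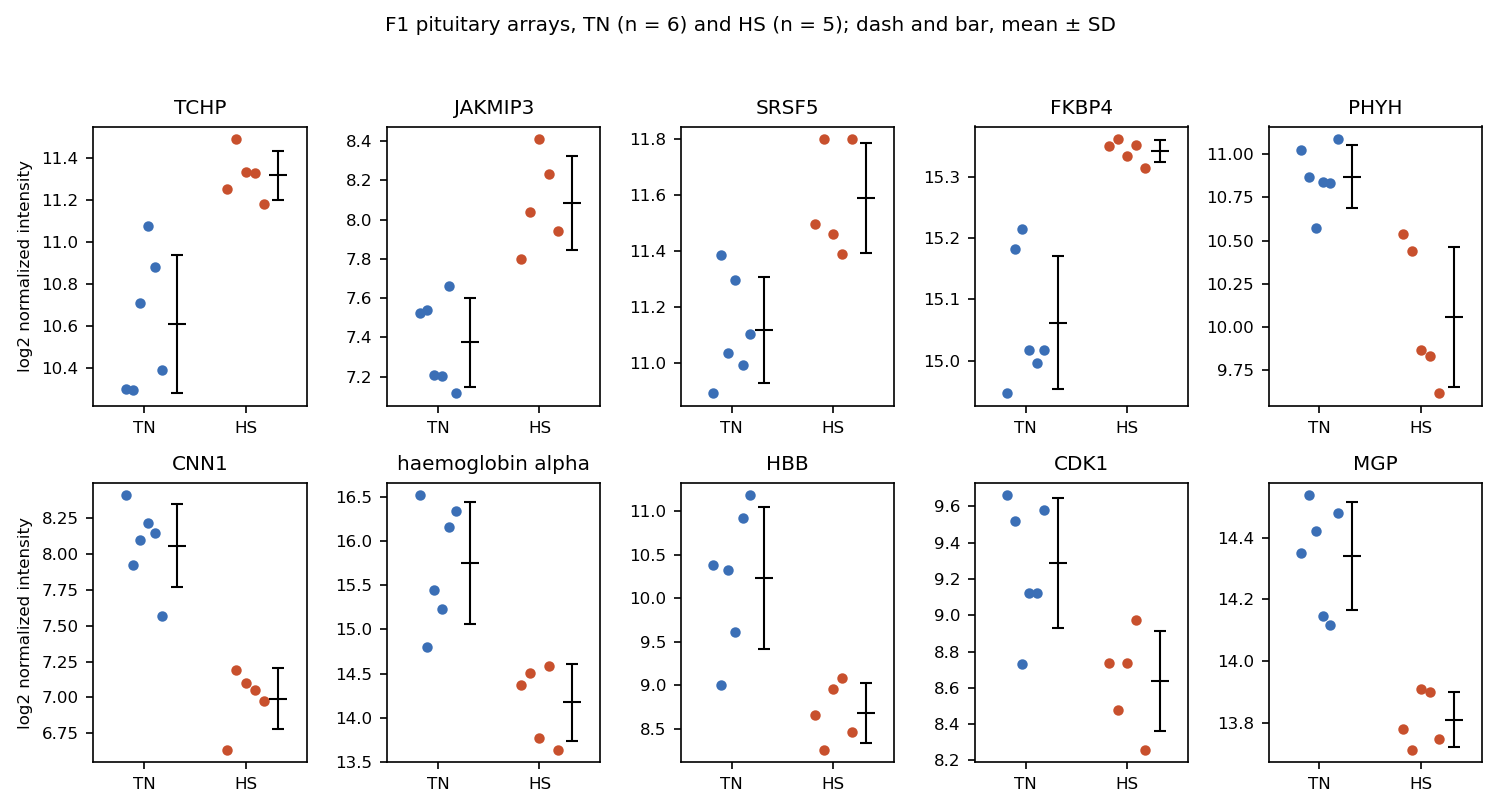
Log2 normalized intensity of 10 named probes on each F1 array, TN in blue (6 arrays) and HS in red (5 arrays), with mean and SD beside the points. TCHP, JAKMIP3, SRSF5 and FKBP4 were higher on each HS array than on any TN array, PHYH, CNN1, haemoglobin alpha and MGP were lower on each, and HBB and CDK1 overlapped. The vertical scales differ between panels and do not start at 0.

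The gene with the smallest p in F1 was TCHP, whose product trichoplein binds keratin filaments and sits at centrosomes and at the base of cilia. On the probe with the smallest p, its log2 level was 10.30, 10.30, 10.71, 11.07, 10.88 and 10.39 on TN 1 to TN 6. The HS arrays gave 11.25, 11.49, 11.33, 11.33 and 11.18. No HS array was as low as the highest TN array, and the HS arrays lay closer together than the TN arrays did. The log2 fold change was 0.71 (SE 0.13, adjusted p 0.129 in limma), a ratio of 1.63. Over the 21 alternative settings the adjusted p ranged from 0.0221, without TN 4, to 0.685.

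The sequences of the TCHP probes are shown because they decide how many separate readings the gene has. The first 30 of the 60 bases of each are given 5′ to 3′ from the array design, with capitals for bases that also stand in another probe of the gene.
TCHP probe 1: AACTGGACCTTCACAAGAAGCATGTGATAA
TCHP probe 2: AACTGGACCTTCACAAGAAGCATGTGATAA
TCHP probe 3: cttcccctgtttcagatgttcattaattgt
TCHP probe 4: ctggaaaaaaggcactatgaaccctaagac
Probes 1 and 2 were the same sequence printed at different spots, and their log2 fold changes were 0.71 and 0.68. Probes 3 and 4 read other stretches of the transcript and gave 0.27 for each (SE 0.13), so all probes lay on the same side at unequal sizes.

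JAKMIP3, whose product belongs to a family that binds Janus kinases and microtubules, had a single probe. It measured between 7.11 and 7.66 (median 7.37) in TN and 7.80, 8.04, 8.41, 8.23 and 7.94 in HS, again without overlap. This gave a log2 fold change of 0.71 (SE 0.14, adjusted p 0.129 in limma). RIMS2, a scaffold of the sites where secretory vesicles fuse with the membrane, also had a single probe, at 7.04 to 7.42 in TN and 7.57, 7.86, 8.44, 8.01 and 7.37 in HS. HS 5 fell within the TN range, and the log2 fold change was 0.64 (SE 0.16, adjusted p 0.443 in limma).

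The transcript ENSSSCT00000002800, described in the array design as an uncharacterized protein and named here after its values were seen, had an adjusted p as small as these. Its pair of probes gave log2 fold changes of 0.66 and 0.65 (SE 0.12 for each), and whether they share bases is not given here. On the first of them TN arrays lay between 8.52 and 9.004 and HS arrays between 9.04 and 9.83, and on the second the lowest HS array (9.14) lay below the highest TN array (9.17).

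Among the 12 named genes higher in HS with the smallest p, 8 had arrays that did not overlap, beside 43 of 9505 named genes on the higher side (0.452%). The log2 fold changes of the 12 ran from 0.27 to 0.71 and their adjusted p from 0.129 to 0.534. All 12 were higher in HS within each of the 3 slides with both temperatures, although SRSF5 differed by only 0.0044 on slide 3. These genes were chosen for their p in this comparison, so the counts describe the choice.

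SRSF5, a splicing factor of the serine and arginine rich family, stood at 10.89 to 11.39 (median 11.07) in TN and at 11.50, 11.80, 11.46, 11.39 and 11.80 in HS. HS 4 lay just above TN 2, and the arrays did not overlap. This gave a log2 fold change of 0.47 (SE 0.11, adjusted p 0.306 in limma). Its 6 probes covered 5 stretches, and values ran from -0.04 to 0.50. CWC15, another component of the spliceosome, gave 0.43 (SE 0.11, adjusted p 0.534 in limma).

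FKBP4, which encodes the co-chaperone FKBP52 that rides with HSP90 on steroid receptors, was very even in HS. It measured 14.95, 15.18, 15.22, 15.02, 15.00 and 15.02 in TN and 15.35, 15.36, 15.33, 15.35 and 15.32 in HS. The difference in log2 level was 0.28 (SE 0.07, adjusted p 0.451 in limma). The other 2 probes of FKBP4 gave -0.01 and -0.07 on stretches of their own and lay near 0.

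PSMD1, a subunit of the proteasome cap, gave 0.27 (SE 0.07, adjusted p 0.534 in limma), at 8.08 to 8.23 in TN and 8.36 to 8.50 in HS. ABCB8, a transporter of the inner mitochondrial membrane, gave 0.31 (SE 0.08, adjusted p 0.516 in limma), also without overlap. DOK2, an adaptor of tyrosine kinases in blood cells, gave 0.52 (SE 0.13, adjusted p 0.460 in limma) with 1 HS array inside the TN range, but its other 3 probes, each on a stretch of its own, ran from -0.08 to 0.12.

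Plasma protein transcripts were among the dimmest of these genes. ALB, albumin, measured 5.98 to 6.30 in TN and 6.65, 6.27, 6.43, 6.51 and 7.40 in HS, with HS 5 the highest. Its log2 fold change was 0.50 (SE 0.12, adjusted p 0.447 in limma), and 10 of the other 11 probes were also higher in HS. Of these 11 probes 6 shared bases with the named one, and of the 5 other stretches 4 were higher. Without HS 5 the value of ALB was 0.31. APOC3, an apolipoprotein of triglyceride-rich particles, gave 0.29 (SE 0.08, adjusted p 0.534 in limma) at levels of 5.63 to 6.16, and its other probe was not on the same side. Over the 21 alternative settings ALB ranged from 0.31 to 0.73 and APOC3 from 0.23 to 0.68.

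The largest log2 fold change upward among named genes with arrays that did not overlap was that of LOC396781, described in the array design as IgG heavy chain. On its named probe TN arrays lay between 5.79 and 6.19 and the HS arrays at 6.21, 7.84, 8.95, 6.94 and 6.47. HS 2 and HS 3 stood far above the others, and the log2 fold change was 1.28 (SE 0.42, adjusted p 0.767 in limma). The other 13 probes all lay higher in HS. Of the 14 probes, 10 shared bases with each other, so they amount to 5 stretches, and immunoglobulin heavy chains form a family of near-identical genes that such probes may not separate. CD79A, part of the B cell receptor, went the other way, with 7.35 to 9.16 in TN and 7.55, 7.80, 6.91, 6.52 and 6.94 in HS (log2 fold change -0.86, SE 0.33, adjusted p 0.848 in limma).

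On the lower side, PHYH gave similar readings on all of its probes. It encodes the peroxisomal enzyme that starts the breakdown of phytanic acid, a branched fatty acid from the diet. On its leading probe TN arrays gave 11.02, 10.87, 10.57, 10.84, 10.83 and 11.09. The HS arrays gave 10.54, 10.44, 9.87, 9.83 and 9.62, each below the lowest TN array. The log2 fold change was -0.81 (SE 0.17, adjusted p 0.287 in limma), a ratio of 0.570. Over the 21 alternative settings it stayed between -0.93 and -0.70, with adjusted p from 0.083 to 0.765. The mean on this probe was 10.87 in F1 TN and 10.06 in F1 HS. The parental means were near that of F1 HS, at 9.98 (TN) and 10.05 (HS) in Large White and 9.91 and 10.08 in Creole.

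PHYH had 6 probes, and their first 30 bases are shown in order of p because the reading rests on how far they are independent. Capitals again mark bases shared between probes.
PHYH probe 1: GGGGAGGAGTGACTTTAATGGATGTAAaaa
PHYH probe 2: agtGGGGAGGAGTGACTTTAATGGATGTAA
PHYH probe 3: aaattctatggtttggaaactggcagtctg
PHYH probe 4: ttaacctcatgtttcatgggatccaggata
PHYH probe 5: gttccatgtgagaaaatggtctccaaggtc
PHYH probe 6: tgtcacaatggagaaaggagacacgttttc
Probes 1 and 2 overlap with a shift of 3 bases, and the other 4 read stretches of their own. The 6 log2 fold changes were -0.81, -0.84, -0.86, -0.82, -0.77 and -0.85, so the 5 stretches gave nearly the same reading. All 6 probes come from the same 11 RNA samples and are not replicates of the response.

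**Figure D2:**
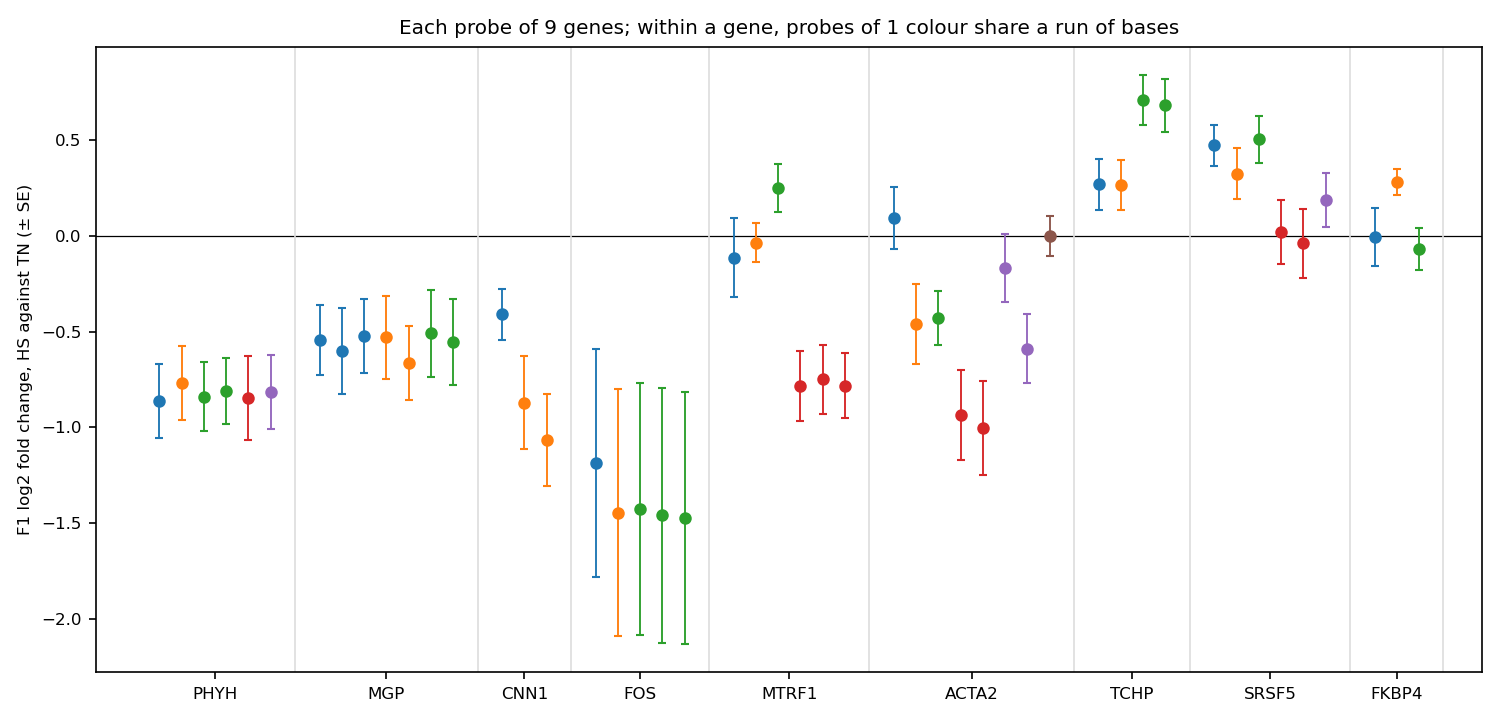
F1 log2 fold change (HS against TN) with SE for each probe of 9 genes. Within a gene, points of 1 colour are probes that share a run of at least 20 bases, and colours are not comparable between genes. The 6 PHYH probes lie from -0.86 to -0.77 and the 7 MGP probes from -0.67 to -0.51, whereas the 3 low MTRF1 probes share 1 stretch and the other MTRF1 stretches lie from -0.11 to 0.25.

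Probes of a gene did not always read alike. MTRF1, a release factor of mitochondrial translation, measured 8.14 to 9.25 (median 8.77) in TN and 8.16, 8.13, 7.70, 7.55 and 7.93 in HS on its named probe, a log2 fold change of -0.78 (SE 0.17, adjusted p 0.287 in limma). The probes that gave -0.78 and -0.75 beside it share its stretch, and 1 of them is identical. The 3 probes on other stretches gave -0.11, -0.04 and 0.25.

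Across the table, 2159 genes had 3 or more probes. Of these, 3 had each probe higher at an unadjusted p under 0.05 (MSTN and APH1A among them) and 6 had each probe lower (PHYH, CNN1, ARG1, MGP, LPL and ARHGAP11A). APH1A, a subunit of gamma-secretase, ran from 0.19 to 0.42 on its 4 probes. MSTN, the growth inhibitor myostatin, ran from 0.26 to 0.39 on 3. LPL, which releases fatty acids from plasma lipids, ran from -0.72 to -0.47 on 4 probes, and ARG1, the arginase of the urea cycle, from -0.83 to -0.46 on 3. ARHGAP11A, a GTPase regulator of dividing cells, ran from -0.40 to -0.35 on 3. These genes were chosen by their p in the same comparison, and MSTN, ARG1 and LPL are dim, with mean log2 levels of 5.95, 5.73 and 5.62.

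Among the 12 named genes lower in HS with the smallest p, 5 had arrays that did not overlap, beside 29 of 9505 named genes on the lower side (0.305%). The log2 fold changes of the 12 ran from -1.55 to -0.28 and their adjusted p from 0.287 to 0.534. Within the 3 slides 10 of the 12 kept their direction, the exceptions being MCOLN3 on slide 5 (0.10) and HBB on slide 3 (0.08). The 12 genes were chosen for their p in this comparison, so the counts describe the choice. MCOLN3, a cation channel of endosomes, measured 8.78, 8.97, 7.91, 7.54, 8.27 and 8.49 in TN. The HS arrays gave 7.06, 6.98, 5.88, 6.07 and 8.48, so HS 5 stood at the TN level and the other 4 below all TN arrays. The log2 difference was -1.43 (SE 0.31, adjusted p 0.287 in limma), and without HS 5 it was -1.83 (adjusted p 0.00432), within a range of 0.00432 to 0.815 over the 21 alternatives.

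Among the genes lower in HS with the smallest p were CNN1 and ACTA2 of smooth muscle. CNN1, calponin of smooth muscle, measured 8.40, 7.92, 8.09, 8.21, 8.14 and 7.57 in TN and 6.64, 7.19, 7.10, 7.05 and 6.98 in HS. The arrays did not overlap, and the log2 fold change was -1.07 (SE 0.24, adjusted p 0.306 in limma). Its other probes gave -0.87 on the same stretch and -0.41 on another. ACTA2, actin of smooth muscle, gave 11.47, 10.56, 10.77, 10.76, 10.78 and 10.85 in TN and 9.84, 9.85, 10.43, 10.20 and 8.99 in HS on its named probe, and the log2 difference was -1.004 (SE 0.24, adjusted p 0.435 in limma). Its 8 probes ran from -1.004 to 0.09, and the brightest of them, which stands for the gene in the list below, gave -0.0025. CTGF, a matrix protein of fibroblasts and vessels, gave -0.90 (SE 0.21, adjusted p 0.401 in limma), with HS 5 at 8.45 below the 9.62 to 9.87 of the other HS arrays.

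Over the list of mural cell and fibroblast markers, 13 of 14 genes were lower in HS and 4 of them had an unadjusted p under 0.05, beside 255 of 9505 named genes on the lower side (2.68%) and 354 on the higher side (3.72%). The 4 were CNN1, MGP (-0.53), the pericyte gene RGS5 (-0.52) and TAGLN (-0.40), which encodes transgelin. None passed the adjusted threshold. The arrays of 2 list members did not overlap, beside 29 of 9505 lower genes (0.305%) and 43 higher ones (0.452%). The median over the list was -0.14, against 0.01 for all named genes. The mean log2 level of the list lay between 10.03 and 10.23 on TN arrays and between 9.81 and 9.96 on HS arrays, without overlap. Its median was also below 0 within each of the 3 slides, at -0.32, -0.18 and -0.15. With slide as a fixed block it was -0.21 and without HS 5 it was -0.22. In bulk tissue, fewer cells of a type and less RNA per cell cannot be told apart.

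MGP, an inhibitor of calcification made by vascular cells and fibroblasts, stood at 14.35, 14.54, 14.42, 14.15, 14.12 and 14.48 in TN and at 13.78, 13.71, 13.91, 13.90 and 13.75 in HS. Each HS array was below each TN array. The difference in log2 level was -0.53 (SE 0.21, adjusted p 0.857 in limma), and all 7 probes, on 3 stretches, had an unadjusted p under 0.05. Endothelial markers were lower for 12 of 15 genes, 1 of them at an unadjusted p under 0.05, beside 2.68% of all named genes, with a median of -0.10. On slide 2 the endothelial median was 0.03 with 8 of 15 higher, on slide 3 it was -0.01 and on slide 5 it was -0.28, and it lay at -0.17 without TN 4 and at -0.06 without TN 3. The gene at an unadjusted p under 0.05 was KLF2, a transcription factor of endothelium exposed to flow, at 10.097 to 10.85 in TN and 9.80, 10.15, 10.30, 9.79 and 9.86 in HS (log2 fold change -0.51, SE 0.15, adjusted p 0.622 in limma).

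Haemoglobin transcripts, which mark red cells in the sample, were lower in F1 HS. The haemoglobin alpha probe, the transcript ENSSSCT00000008741, measured 16.52, 14.80, 15.45, 15.23, 16.16 and 16.34 in TN. In HS it measured 14.37, 14.51, 13.77, 14.58 and 13.64, all below the lowest TN array. The log2 fold change was -1.58 (SE 0.37, adjusted p 0.401 in limma), a ratio of 0.335. On slide 3, where TN 2 is the lowest TN array, the difference was -0.22, against -2.38 on slide 2 and -2.61 on slide 5. Both beta probes turned on slide 3, to 0.08 for HBB and 0.97 for the other.

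The haemoglobin probes are shown to make clear that they are distinct readings. Within these 30 bases they share no run of 20 or more bases with one another, and the rest of each probe was not compared.
haemoglobin alpha (ENSSSCT00000008741): acaagttcctggcaacgtgagcaccgtgct
HBB: ctttaaaacagaaaagacttacatttgctt
haemoglobin beta (ENSSSCT00000016076): cctttagaaaaggaatcaagcttgattggc
HBB measured 10.38, 8.998, 10.32, 9.61, 10.92 and 11.18 in TN and 8.66, 8.26, 8.96, 9.08 and 8.46 in HS. HS 4 lay above TN 2, and the log2 fold change was -1.55 (SE 0.37, adjusted p 0.404 in limma). The second haemoglobin beta probe gave -1.12 (SE 0.37, adjusted p 0.777 in limma) and was well above background on all 6 TN but only 3 of 5 HS arrays. Over the 21 alternative settings it ranged from -1.90 to -0.80. Another transcript cluster, TC558094, named here with the haemoglobins of earlier results, gave -0.04 (SE 0.08).

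Of the 7 erythroid markers measured, 6 were lower in HS and 4 of these had an unadjusted p under 0.05, beside 2.68% of all named genes. They included HBB, AHSP, a chaperone of alpha globin (-0.68), and HBE1, embryonic globin (-0.26). HBE1 was well above background on only 5 of 6 TN and 3 of 5 HS arrays, and its value is also the median of the list. Over the 21 alternative settings HBE1 ranged from -0.51 to -0.17. CA1, a carbonic anhydrase of red cells, was at 0.20 and SLC4A1, the red cell anion exchanger, at -0.02. The mean level of the list was 7.90 to 8.65 on TN and 7.72 to 8.03 on HS arrays. The summed level of the erythroid list ran from 4262 to 7146 on TN arrays and from 3639 to 4592 on HS arrays, and its part in the lower vascular genes was not tested. Leukocyte markers gave 9 of 13 lower, with 1 at an unadjusted p under 0.05 (CD79A, beside 2.68%), and a median of -0.10. This median ranged from -0.12 to -0.043 with each F1 array left out in turn.

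**Figure D3:**
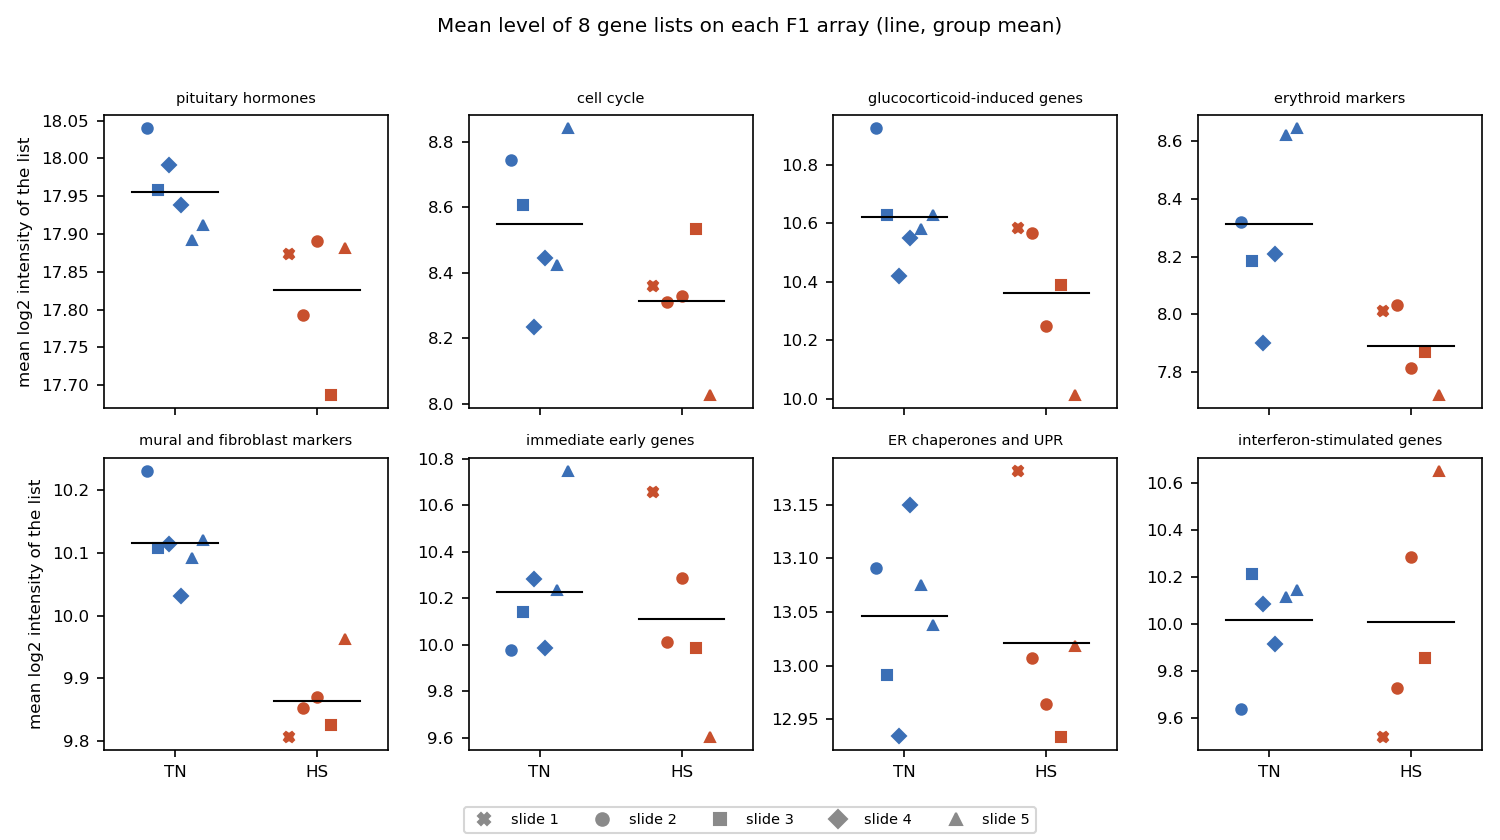
Mean log2 intensity of 8 gene lists on each F1 array, TN in blue and HS in red, with the symbol giving the slide and the line the group mean. The mural and fibroblast list separated the groups (10.03 to 10.23 in TN, 9.81 to 9.96 in HS), and so, narrowly, did the pituitary hormone list (17.892 or higher in TN, 17.891 or lower in HS). The cell cycle, glucocorticoid and erythroid lists overlapped, and HS 5, the red triangle, was the lowest array for each of these.

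Genes of cell division were mostly lower in HS. CDK1, the kinase that drives entry into mitosis, measured 9.66, 9.52, 8.73, 9.12, 9.12 and 9.58 in TN and 8.73, 8.48, 8.73, 8.97 and 8.26 in HS. The groups overlapped through TN 3, and the log2 fold change was -0.65 (SE 0.16, adjusted p 0.435 in limma). UBE2C, which tags mitotic cyclins for destruction, gave 9.31 to 10.29 in TN and 8.83, 9.24, 9.21, 9.59 and 8.78 in HS (-0.70, SE 0.18, adjusted p 0.534 in limma). CDCA3, a trigger of mitotic entry, gave -0.58 (SE 0.15, adjusted p 0.516 in limma).

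Of 27 cell cycle genes measured, 24 were lower in HS, 9 of them at an unadjusted p under 0.05, beside 2.68% of all named genes, and 0 past the adjusted threshold. Beside UBE2C and CDK1 the 9 included the ribonucleotide reductase subunit RRM2 (-0.54), PTTG1, securin (-0.53), topoisomerase TOP2A (-0.52), cyclin CCNB1 (-0.48) and CDC20 (-0.45). The other probe of CDC20, identical in sequence, gave -0.16. MKI67, the usual marker of dividing cells, was at 0.04, KIF11 at 0.20 and CDC25C at 0.21. The median was -0.20. It was -0.36 on slide 2, -0.06 on slide 3 and -0.57 on slide 5, and ranged from -0.27 to -0.14 when each array was left out in turn.

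Of 11 genes that glucocorticoids are known to induce, 9 were lower in HS. An unadjusted p under 0.05 was reached by 5, all lower, and by 0 on the higher side, beside 2.68% of all named genes lower and 3.72% higher. FKBP5, the co-chaperone that damps the glucocorticoid receptor, measured 10.85, 10.35, 10.18, 10.17, 10.29 and 10.29 in TN and 10.38, 10.13, 9.60, 9.97 and 9.30 in HS (log2 fold change -0.48, SE 0.17, adjusted p 0.831 in limma). TN 1 stood above the other TN arrays and HS 1 lay above all TN arrays but TN 1. Its 5 probes, each on its own stretch, ran from -0.48 to -0.23.

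SGK1, a kinase of sodium transport, lay at 7.87 to 8.49 in TN and 7.71, 7.83, 7.85, 7.73 and 7.498 in HS, without overlap (-0.34, SE 0.12, adjusted p 0.823 in limma). ANGPTL4, an inhibitor of lipoprotein lipase that also answers to fasting, gave -0.84 (SE 0.37, adjusted p 0.865 in limma), ZBTB16 gave -0.56 and KLF15 gave -0.23. PER1 was the highest of the list at 0.17. The median over the list was -0.23 in F1, and it was below 0 on each slide, at -0.30, -0.24 and -0.55.

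Immediate early genes, which answer within minutes to a stimulus, varied widely between animals. FOS measured 11.94, 12.46, 13.53, 12.10, 13.43 and 14.23 in TN and 12.79, 10.52, 13.27, 11.21 and 9.81 in HS. HS 1 and HS 3 were as high as TN arrays and HS 5 was the lowest of all, and the log2 fold change was -1.43 (SE 0.66, adjusted p 0.865 in limma). KLF4 gave -0.67 (SE 0.26, adjusted p 0.843 in limma) and NR4A1, a corticotroph and stress factor, -0.16 (SE 0.07), against 0.14 on its other probe. NR4A2 and NR4A3 were at 0.59 and 0.76 with an unadjusted p over 0.05. Of the 11 genes 3 had an unadjusted p under 0.05, all lower, beside 2.68% of all named genes lower and 3.72% higher. The median was -0.12. It was 0.05 on slide 2, where 6 of 11 were higher, -0.20 on slide 3 and -0.59 on slide 5, and without HS 5 it was 0.0064.

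Hormone transcripts had small fold changes on the brightest probes, at the top of the scale. GH1, growth hormone, measured 18.94 to 19.07 in TN and 18.95 to 19.07 in HS, and its log2 fold change was -0.01 with a 95% interval of -0.12 to 0.10. POMC, the precursor of ACTH, gave -0.01 (-0.11 to 0.08), PRL, prolactin, -0.02 (-0.20 to 0.17), and CGA, the alpha subunit of the glycoprotein hormones, -0.04 (-0.14 to 0.07). These 4 probes ranked among the 21 brightest of the table. Quantile normalization gives each array the same set of values, so probes of this rank can take only a few top levels. The level 19.07 was that of GH1 on 3 F1 arrays, of POMC on 1 and of CGA on 1. With processed intensities scaled on the 75th percentile the SE was 0.09 for GH1 and for POMC, against 0.05 for each here. The sign of GH1, PRL and POMC turned with another scaling, given in the closing section.

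The beta subunits had wider intervals. LHB, of luteinizing hormone, measured 17.47 to 17.99 in TN and 17.79, 17.74, 17.60, 17.18 and 17.24 in HS, with a log2 fold change of -0.21 (-0.53 to 0.11). FSHB, of follicle stimulating hormone, gave -0.24 (-0.69 to 0.21). With each F1 array left out in turn, LHB ran from -0.28 to -0.13 and FSHB from -0.35 to -0.15. TSHB, of thyrotropin, measured 15.40, 15.63, 15.90, 15.71, 15.15 and 15.18 in TN and 14.68, 14.76, 15.38, 14.56 and 16.20 in HS. The first 4 HS arrays were at or below the TN median, HS 5 was above all TN arrays, and the log2 fold change was -0.38 (-2.12 to 1.36). This interval takes in the spread of the parental arrays, whose SD was 2.92 in Large White TN and 2.43 in Creole TN against 0.30 in F1 TN and 0.68 in F1 HS. With the F1 arrays alone the SE was 0.26 in place of 0.85. The direction of TSHB turned with slide as a fixed block, to 0.19, and on slide 5, to 1.03. The log2 fold change of TSHB ran from -0.65 to -0.24 with each F1 array left out in turn. On their brightest probes all 7 hormone genes were on the lower side and 0 had an unadjusted p under 0.05. Of the 4 other POMC probes only 1 was lower, and their values ran from -0.0036 to 0.19. The other FSHB probe was not lower either, whereas the other stretches of PRL, CGA and LHB were all lower. GH1 and TSHB had a single probe.

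Receptors and feedback genes were near 0 as a group. Of 18 receptor genes 10 were higher, with a median of 0.06. The median was -0.02 on slide 2, where 10 of 18 were lower, 0.15 on slide 3 and 0.27 on slide 5. It ranged from 0.017 to 0.065 with each F1 array left out in turn. CRHR1, the receptor through which CRH releases ACTH, was the only 1 of the 18 at an unadjusted p under 0.05, beside 6.41% of all named genes. It measured 8.48 to 8.86 in TN and 9.04, 8.39, 9.16, 8.92 and 9.40 in HS (log2 fold change 0.36, SE 0.15, adjusted p 0.862 in limma), with HS 2 below all TN arrays and a difference of -0.09 on slide 2. SSTR5, a somatostatin receptor, gave 0.42 (SE 0.21), with -0.12 on slide 5, and the growth hormone secretagogue receptor GHSR 0.24, while the gonadotropin releasing hormone receptor GNRHR was at -0.28. DIO2, which makes active thyroid hormone from thyroxine, measured 11.83 to 12.46 in TN and 12.11, 12.50, 12.38, 12.31 and 12.98 in HS (0.32, SE 0.14, adjusted p 0.865 in limma). It was the 1 of 7 genes of thyroid hormone feedback at an unadjusted p under 0.05, in a list with a median of 0.12, and without HS 5 the value of DIO2 was 0.19.

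In the activin system of gonadotrophs INHA, the inhibin alpha subunit, gave -0.21 (SE 0.10) and the activin receptor ACVR2A 0.21 (SE 0.09), the 2 of 12 genes at an unadjusted p under 0.05, beside 6.41% of all named genes. Their values were -0.14 without HS 3 and 0.12 without HS 2. Among lineage factors LHX3, needed to form the anterior lobe, gave 0.27 (SE 0.13), the 1 of 11 at an unadjusted p under 0.05, and NR5A1 of gonadotrophs gave -0.31 (SE 0.20). Of 14 genes of secretory granules and prohormone processing 0 had an unadjusted p under 0.05. Their values ran from -0.26 (PCSK2) to 0.19 (SYT1), and that of PCSK2 was 0.19 without HS 5 and -0.70 without HS 2.

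Heat shock genes lay on both sides of 0 after the days of exposure. Of 30 cytosolic chaperones and co-chaperones 17 were higher and 13 lower, with a median of 0.01, and 2 on each side had an unadjusted p under 0.05, beside 6.41% of all named genes on either side. FKBP4 and UNC45A, a myosin chaperone (0.15, SE 0.06), were higher. HSPA8, the constitutive HSP70, and HSPH1, its exchange factor, were lower (-0.30, SE 0.13, and -0.26). HSPA8 measured 15.42 to 15.51 in TN and 15.24, 14.63, 15.44, 15.64 and 14.86 in HS, so the HS arrays spread to both sides of a narrow TN range. Without HS 2 the value of HSPA8 was -0.17, and on slide 3 it was 0.20. The heat-inducible HSP70.2 gave -0.26, DNAJB1 -0.15, HSPB1 0.10 and HSP90AA1 0.18.

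Chaperones of mitochondria and of the endoplasmic reticulum differed in which members stood apart. TRAP1, the mitochondrial HSP90, measured 8.43 to 9.92 in TN and 9.61, 9.60, 10.16, 9.83 and 9.98 in HS (0.54, SE 0.20, adjusted p 0.831 in limma). LONP1, a protease of the mitochondrial matrix, gave 0.19 (SE 0.06, adjusted p 0.719 in limma). These were the 2 of 10 mitochondrial genes at an unadjusted p under 0.05, again beside 6.41%. In the endoplasmic reticulum the calcium-binding chaperones HSP90B1 (-0.25), CALR (-0.24) and PDIA3 (-0.23) were lower and EIF2AK3, the stress sensor PERK, was higher (0.22), which makes 4 of 23 genes at an unadjusted p under 0.05, beside the same 6.41%. The ER list had a median of -0.01, and its central chaperone HSPA5 was at -0.05.

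Lists of energy and redox metabolism stayed near 0. Of 55 oxidative phosphorylation genes 33 were higher and 1, COX4I1 of cytochrome oxidase (0.26, SE 0.09), had an unadjusted p under 0.05, with a median of 0.02. Over all named genes that share was 6.41%, above that of each list here. Of 29 antioxidant enzymes 1 did, GPX1 (-0.21, SE 0.10, and -0.13 without HS 2), with a median of -0.03. Of 15 cholesterol synthesis genes 0 did, with a median of 0.01, and of 25 interferon-stimulated genes 0 did, with a median of 0.03. Within slides the interferon list had medians of 0.35, -0.22 and 0.41, and MX1, an antiviral GTPase, was at 14.65 to 15.21 in TN and 11.96, 14.34, 15.48, 14.86 and 15.53 in HS. CIRBP, an RNA-binding protein induced by cold, was at 0.19 (SE 0.13). It ranged from 0.11 to 0.26 with each F1 array left out in turn, and was 0.58, 0.60 and 0.0063 on slides 2, 3 and 5.

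Clock genes gave 4 of 16 at an unadjusted p under 0.05, beside 6.41% of the 9505 named genes. HLF, an output factor of the clock, measured 10.78 to 11.16 in TN and 11.25, 11.45, 11.36, 11.32 and 11.31 in HS, without overlap (0.35, SE 0.11, adjusted p 0.767 in limma). RORB was at 0.26 and the repressor BHLHE41 at 0.22 (SE 0.08, with -0.20 on its other probe), while the activator NPAS2 was at -0.43 (SE 0.20) and at -0.28 without TN 1. The core genes ARNTL, CRY1 and PER2 lay between -0.06 and -0.02.

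**Figure D4:**
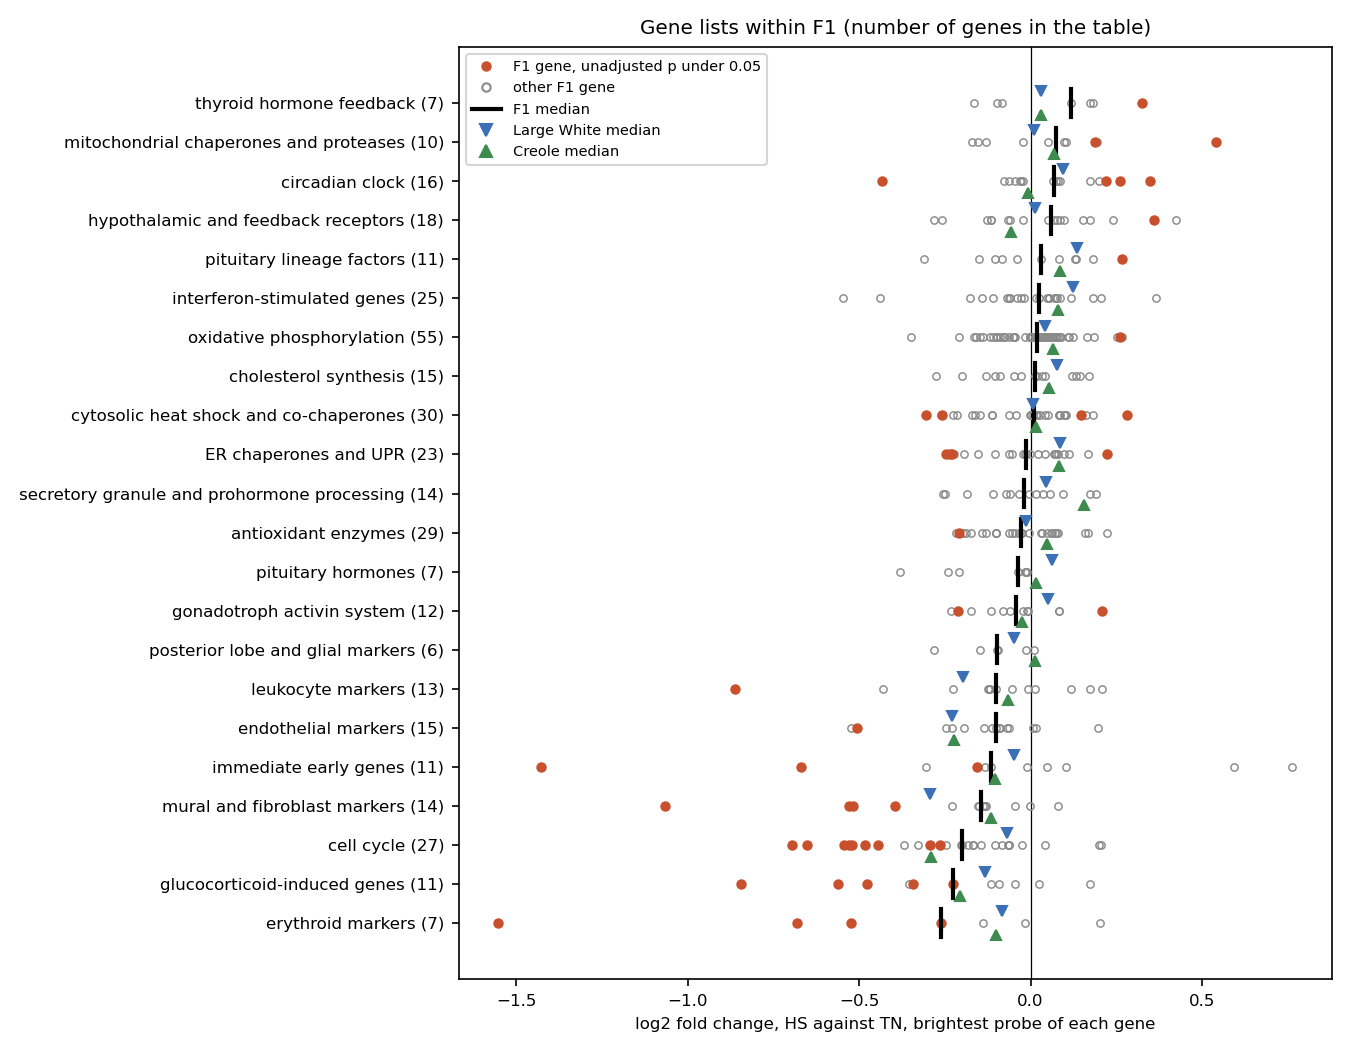
F1 log2 fold change (HS against TN) of the brightest probe of each gene, by list, with the number of genes in the table. Filled points had an unadjusted p under 0.05, bars are F1 medians and triangles the medians of Large White (pointing down) and Creole (pointing up). The lowest F1 medians were those of the erythroid (-0.26), glucocorticoid (-0.23), cell cycle (-0.20) and mural and fibroblast (-0.14) lists, of which the erythroid median is the value of the dim HBE1.

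The F1 response was then set against that of the parental breeds, which share no array with it but share slides. For 1 of the parental arrays, Large White HS 3, the labels disagree on the breed, and it was kept as Large White as its title has it. The test of the difference, F1 response minus the mean of the Large White and Creole responses, called 0 of 45667 probes (0%) with a smallest adjusted p of 0.786. An unadjusted p under 0.05 was reached by 1901 probes (4.16%), of which 1002 (2.19%) had a higher and 899 (1.97%) a lower value in F1. Without HS 3 the count at an unadjusted p under 0.05 was 3273 and without HS 4 it was 2999. Against Large White alone 0 were called and 2224 (4.87%) had an unadjusted p under 0.05, and against Creole alone 0 and 1763 (3.86%). The unadjusted count against Creole was 3879 without F1 HS 3 and 1121 without F1 HS 2. The parental response itself had 0 adjusted calls and 3501 probes (7.67%) at an unadjusted p under 0.05.

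Over all probes, F1 and parental log2 fold changes had the same sign for 51.5%, with a correlation across probes of 0.09 (Pearson) and 0.05 (Spearman), given as a description since probes are not independent. Among the 1467 probes higher in F1 at an unadjusted p under 0.05, 975 (66.5%) were also higher in the parents, and among the 1126 lower, 665 (59.1%) were also lower. Of all probes 55.4% were higher and 44.6% lower in the parents. The median log2 fold change of these probes was 0.26 and -0.33 in F1 and 0.04 and -0.03 in the parents.

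**Figure D5:**
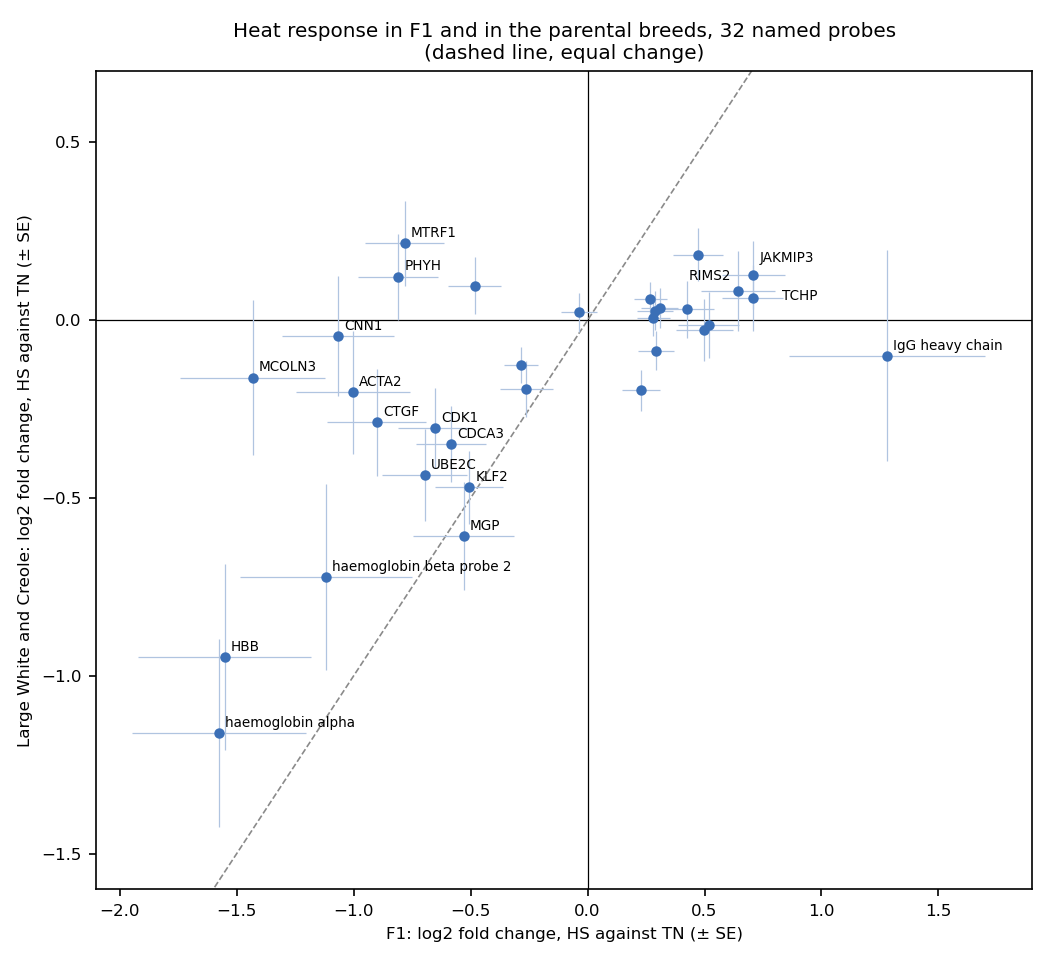
Log2 fold change, HS against TN, in F1 (horizontal) and in the parental breeds (vertical) for 32 named probes, each with its SE. The haemoglobin probes, KLF2, MGP, CDK1, UBE2C and CDCA3 were below 0 on both axes, whereas PHYH, MTRF1, TCHP and JAKMIP3 lay away from the dashed line of equal change. Most of these probes were chosen for their p in F1, which places them far from 0 on the horizontal axis.

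F1 and parental values lay close together for some named genes and apart for others. MGP had -0.53 in F1 and -0.61 in the parents and KLF2 -0.51 and -0.47. Both were named from earlier results of these data, and both were also among the genes with the smallest p of their lists in F1. Haemoglobin alpha had -1.58 and -1.16, HBB -1.55 and -0.95, UBE2C -0.70 and -0.44, and CDK1 -0.65 and -0.30. These were on the same side but smaller in the mean of the parents. By breed, UBE2C had -0.20 in Large White and -0.67 in Creole, and CDK1 -0.19 and -0.41. For none of the genes named up to here in this paragraph was the difference between F1 and parents at an unadjusted p under 0.05. TCHP had 0.71 against 0.06 and JAKMIP3 0.71 against 0.13, with differences of 0.64 (SE 0.16) and 0.58 (SE 0.17). All 12 of the genes higher in F1 with the smallest p, and 7 of the 12 lower, differed from the parents at an unadjusted p under 0.05, which their choice by the F1 value favours.

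Genes chosen for the difference itself were led by MTRF1 (F1 -0.78, parents 0.22), PHYH (F1 -0.84, parents 0.16 on probe 2) and CD180 (F1 -0.48, parents 0.10) on the lower side. CD180, a B cell and macrophage receptor that tempers toll-like signalling, measured 7.23 to 7.76 in TN and 7.004, 7.004, 7.22, 6.97 and 6.75 in HS of F1. On the higher side they were GPATCH1 (F1 0.23, parents -0.20), TCHP and RSPH3, a protein of ciliary spokes (F1 0.29, parents -0.09). Of RSPH3, HS arrays gave 6.96, 6.82, 7.001, 6.96 and 7.0004 and TN arrays 6.41 to 6.79. None of these differences passed the adjusted threshold in limma, where the smallest value was 0.786.

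Gene lists placed F1 beside its parents. Cell cycle genes had medians of -0.20 in F1, -0.07 in Large White and -0.29 in Creole, with 9, 1 and 15 of 27 genes lower at an unadjusted p under 0.05. Over all 9505 named genes that share was 2.68% in F1, 2.14% in Large White and 2.29% in Creole. Glucocorticoid-induced genes had -0.23, -0.13 and -0.20, with 5, 1 and 2 of 11 lower at an unadjusted p under 0.05. Mural and fibroblast markers had -0.14, -0.29 and -0.12, and endothelial markers -0.10, -0.23 and -0.22. Hormone genes had -0.04, 0.06 and 0.02, and genes of the ER -0.01, 0.09 and 0.08. Of the 23 ER genes 10 were higher in F1 against 21 in Large White and 15 in Creole. Over all named genes the share higher was 54.0% in F1, 56.3% in Large White and 56.3% in Creole. The difference between F1 and parents had an unadjusted p under 0.05 for 3 of the 23 ER genes, beside 4.26% of the 9505 named genes. These values are descriptions, and no difference between breeds was tested at the level of a list.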

How the data were processed

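RNA from the pituitary of 33 pigs was hybridised to 1-colour porcine arrays, 1 pig an array, and 11 of these were F1. Values were the log2 intensities of the table deposited by the authors (45667 probes), who took the median pixel intensity of each spot without background correction and quantile-normalized the arrays. Scans were read by the authors with Agilent Feature Extraction 10.10.1.1, per the submitters' processing notes. The deposited scanner intensities and the deposited other marks of each spot (well above background, saturated) gave the alternatives and the checks of levels. The number of arrays limits the precision.

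Means of the 6 groups of breed and temperature were fitted to all 33 arrays with limma 3.58.1 in R 4.3.3 (lmFit and eBayes), with Benjamini-Hochberg adjustment of p over the 45667 probes and a threshold of 0.05. The methods of the study name a mixed model with pen, slaughter and parents as random terms, which the labels used here do not give. Breed and temperature were read from titles. Gene symbols came from the design file of the array, or from an accession or synonym matched in RefSeq tables, which gave 19631 probes (43.0%) with 1 symbol and 9505 genes, each represented in lists by its brightest probe. Within-slide values are differences of means on slides with both temperatures. Tables and plots were made in Python 3.11.15 with pandas 2.3.3 and matplotlib 3.10.9. The fit was tested on simulated data with independent noise, which held no slide or kinship. At the adjusted threshold it recovered 26 of 50 log2 changes of 0.5 and 48 of 50 of 1, and it called 15 unchanged probes. Probes that share a run of at least 20 bases were counted as 1 stretch. No genome of the array's build was used here, so positions are not given.

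The members and gene lists were chosen with earlier results of these data known. Genes named singly were the 12 higher and 12 lower with the smallest p among named probes well above background on all 11 F1 arrays, the 3 highest and 3 lowest changes without overlap, the 7 hormone genes, the haemoglobins, KLF2 and MGP, up to 3 genes with the smallest p of each list, and the 3 higher and 3 lower with the smallest p for F1 against the parents. Some genes that this rule takes are not reported here. Other members of the lists, and genes with each probe at an unadjusted p under 0.05, were named after their values were seen. Alternatives were the scanner values under other scalings and background corrections, a filter on dim probes, the F1 arrays alone, slide as a fixed or random block, array weights, the array with conflicting breed labels moved or left out, all probes of a gene, and leaving out each F1 array.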

Additional observations from a re-analysis of the deposited data

Results flagged for a closer look

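Among 200 groups of arrays examined (100 named probes in 2 groups), 8 had an array that stood apart from the rest of its group, and chance marks about 1 in 20 groups. CTGF was at 8.45 on HS 5, against 9.62 to 9.87 on the other HS arrays. HS 5 was also the array apart for SLC1A3, a glial glutamate transporter, at 6.47 against 5.73 to 5.92, and for GCLC, which makes the first step of glutathione synthesis, at 6.58 against 7.08 to 7.199. TN 1 stood apart for ACTA2 at 11.47 (others 10.56 to 10.85), for FKBP5 at 10.85 (others 10.17 to 10.35) and for SREBF1, a regulator of lipid synthesis, at 10.16 (others 10.67 to 10.96). GCLC was low on TN 2 at 6.84 (others 7.24 to 7.45), and RSPH3 was low on HS 2 at 6.82 (others 6.96 to 7.001). Of these 8 values, 6 came from HS 5 and TN 1.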

How the results depend on the processing

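The count of 0 probes past the adjusted threshold within F1 was the same in all 10 settings that kept every F1 array and ranged from 0 to 2 when F1 arrays were left out. The F1 probes at an unadjusted p under 0.05 ranged from 2131 to 3711 with arrays left out. For F1 against the parents 0 probes passed in any setting, and those at an unadjusted p under 0.05 ranged from 1389 to 3273. Of 100 named probes 91 kept their direction in all 21 alternatives. With processed intensities scaled on the 75th percentile, GH1 was at 0.029, PRL at 0.0078 and POMC at 0.071, and the medians of the cholesterol and erythroid lists were -0.078 and -0.51. With slide as a fixed block PRL was at 0.015, TSHB at 0.19 and TC558094 at 0.027, and list medians were 0.093 for lineage factors, -0.21 for mural and fibroblast markers and -0.032 for leukocyte markers. Over all probes of a gene the activin list had a median of -0.0017. With arrays left out, signs turned for GH1 (-0.026 to 0.0038), PRL (-0.041 to 0.019), TC558094 (-0.077 to 0.00083), SLC1A3 (-0.22 to 0.044), PCSK2 (-0.70 to 0.19), PAX7 (-0.056 to 0.0075) and MX1 (-0.82 to 0.073), and list medians ranged from -0.086 to -0.020 (activin), -0.025 to 0.11 (lineage) and -0.22 to -0.14 (mural and fibroblast). Of the 24 list medians 8 turned with at least 1 F1 array left out. Beside lineage these were immediate early (-0.15 to 0.0064), interferon (-0.12 to 0.12), ER (-0.036 to 0.031), antioxidant (-0.040 to 0.023), cholesterol (-0.059 to 0.029), secretory granule (-0.092 to 0.071) and intermediate lobe genes (-0.36 to 0.077). The cause of these shifts was not tested. No paired analysis was possible because the replicate numbers follow the order of the records and do not link pigs between groups.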
